A study of Mus musculus with 6 samples.

Results

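MAP1B and 9 other microtubule genes, MAP1A, MAP1S, MAP2, MAP4, MAP6, MAPT, STMN1, TUBB3 and DCLK1, were followed in parental and drug-resistant prostate cancer cells. They are 10 of the 58735 genes in the count table and were found by gene symbol. MAP1B and the genes beside it were selected on values from these same libraries, with the higher MAP1B mRNA of resistant cells already known. Their differences between the lines are therefore given as a description. No p-values are printed for them, and where a threshold is mentioned it only places a gene among all genes of the table and is no test of the choice.

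The cells were 22Rv1, a human prostate carcinoma line. Parental cells received vehicle (3 libraries), and the resistant subline, 22Rv1 BL-B01D1_R, was raised from them under gradually rising concentrations of BL-B01D1 (3 libraries). BL-B01D1 is a bispecific antibody–drug conjugate that binds EGFR and HER3 and carries Ed-04, a camptothecin-type topoisomerase I inhibitor. The subline came from 1 selection, so the spread between its libraries does not cover a repeated selection, and the sources used here do not say whether separate cultures were taken for each library or whether drug was present at harvest. The sample labels name mouse as the organism, but the gene identifiers and the cell line are human.

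Microtubules are hollow polymers of alpha- and beta-tubulin that constantly grow and shrink. Structural microtubule-associated proteins (MAPs) bind along the polymer and stabilize it, stathmins hold free tubulin dimers away from it, and neurons use a set of these proteins that dividing epithelial cells express weakly or not at all. MAP1B is the MAP of growing axons and is made as a precursor that is cleaved into a heavy and a light chain, whereas MAP1A belongs to mature neurons and dendrites and MAP1S is found in most tissues. MAP2 is a dendritic protein, tau (MAPT) an axonal one and MAP4 their relative in non-neuronal cells.

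Counts on genes totaled between 13821639 and 17251491 per library. At these depths 3 counts correspond to 0.174 to 0.216 CPM, which are counts per 1e+06 after TMM scaling of the library sizes. All 10 luminal prostate markers examined were expressed, although KLK3 was at only 2.67 ± 0.58 CPM (SD, n = 3) in parental and 4.96 ± 1.24 CPM in resistant cells. The 10 neuronal markers summed to between 62.5 and 64.5 CPM in parental libraries and between 49.1 and 53.3 CPM in resistant libraries, with SNAP25 as the most abundant. NEFL, also on this list, went the other way, from 0.157 ± 0.150 to 2.45 ± 0.33 CPM. It passed the filter on low counts through its resistant libraries alone. Of 5 neuronal markers tested, 1 was higher (NEFL, 20%) and 2 lower (40%) at a false discovery rate (FDR) under 0.05. Of the 10 luminal markers, all tested, 7 were higher (70%) and 2 lower (20%), with log2 fold changes from −0.48 to 0.91. Of all genes tested, 17.1% were higher and 18.4% lower. DCX had no counts, and 4 of these markers stayed under 10 counts in every library. The summed level of 5 markers was 13.1 to 17.2 CPM in parental and 8.07 to 9.35 CPM in resistant libraries for glia, 1.62 to 2.74 and 1.22 to 2.03 CPM for leukocytes, and at most 0.247 CPM in any library for endothelium. The 5 fibroblast markers summed to between 111 and 115 CPM in parental and between 39.6 and 44.3 CPM in resistant libraries, mostly LUM, with COL1A2 near 0. The part of these markers in the differences below was not tested. Since the libraries are bulk RNA, a change in how many cells express a gene and a change in its RNA per cell cannot be told apart.

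The 10 genes ranged from abundant to almost absent. In FPKM, which divides CPM by the gene length listed in the table in kilobases, parental means were 97.0 ± 2.37 for STMN1, 29.7 ± 0.62 for MAP4, 18.8 ± 0.19 for MAP1B and 10.9 ± 0.25 for MAP1S (SD, n = 3). Below them came MAP2 at 4.86 ± 0.05, MAPT at 3.38 ± 0.17, MAP1A at 1.42 ± 0.14 and TUBB3 at 0.447 ± 0.084 FPKM, with MAP6 and DCLK1 close to 0. STMN1 and MAP4, the proteins of dividing cells, thus stood at the top, with MAP1B above the widely expressed MAP1S. No neighbors from STMN1 to MAP6 had overlapping parental libraries.

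**Figure D1:**
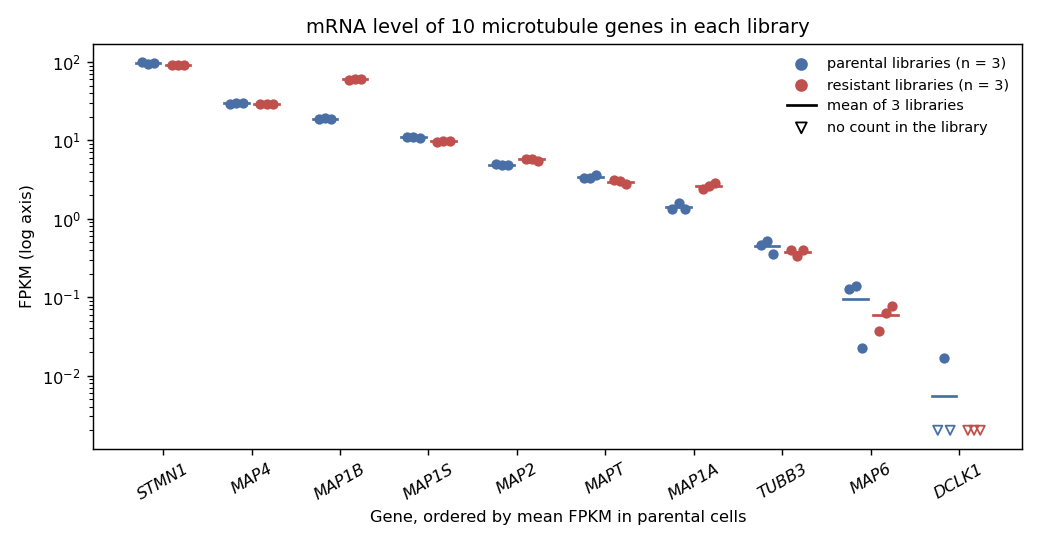
FPKM on a log axis for each of the 10 genes, ordered by parental mean; points are libraries (3 parental, 3 resistant), short lines are means, and open triangles mark libraries without a count. MAP1B moved from 18.8 to 60.3 FPKM and so from below MAP4 to above it, while the points of the other abundant genes lay close together.

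In resistant cells MAP1B stood second, at 60.3 ± 1.31 FPKM, above MAP4 at 28.9 ± 0.13 FPKM and below STMN1 at 91.4 ± 0.41 FPKM (SD, n = 3). MAP1A, at 2.60 ± 0.21 FPKM, came within the range of MAPT, at 2.98 ± 0.20 FPKM, and these neighbors did not differ beyond their spread. The remaining order was that of parental cells. Among 19951 protein-coding genes ranked by FPKM, MAP1B moved from place 2544 to place 597, whereas MAP4 stood at 1498 and 1541 and STMN1 at 298 and 337.

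MAP1B (ENSG00000131711) lies on the forward strand of chromosome 5 of hg38, from 72107234 to 72209570, with a listed length of 12630 bases. It had 4104, 4035 and 3270 counts in parental libraries and 12319, 11290 and 12573 in resistant libraries. On the CPM scale these were 238, 240 and 236 in parental libraries and 743, 768 and 775 in resistant libraries. The lowest resistant library lay 503 CPM above the highest parental one, and the libraries within a line differed by a few percent. The mean rose from 238 ± 2.36 to 762 ± 16.6 CPM (SD, n = 3), a 3.20-fold difference with a log2 fold change of 1.68 (SE 0.028). Its place among all genes by counts went from 677 to 105. By log2 fold change it was number 177 of the 434 genes called higher, so 176 genes had a larger relative increase.

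MAP1A (ENSG00000166963; chromosome 15, 43510958 to 43531620, forward strand), the closest relative of MAP1B in domain structure, had 14.3, 16.9 and 14.2 CPM in parental libraries and 25.6, 27.4 and 29.9 CPM in resistant libraries. The groups did not overlap. The mean went from 15.1 ± 1.53 to 27.6 ± 2.20 CPM (SD, n = 3), with a log2 fold change of 0.86 (SE 0.087), the second largest of the 8 genes with enough counts and under the threshold of 1. MAP1S (ENSG00000130479; chromosome 19, 17719242 to 17734516, forward strand), the short and widely expressed family member, went the other way. Its level was 55.5, 56.2 and 53.7 CPM in parental libraries and 48.1, 49.7 and 50.1 CPM in resistant libraries, with a log2 fold change of −0.16 (SE 0.055). All resistant libraries lay below all parental ones, by at least 3.64 CPM.

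The make-up of the MAP1 family followed from these values. Per length, MAP1B supplied 60.4% ± 0.49 of the summed FPKM of MAP1A, MAP1B and MAP1S in parental cells and 83.0% ± 0.17 in resistant cells (SD, n = 3). The share of MAP1S went from 35.1% ± 0.24 to 13.5% ± 0.04, and that of MAP1A from 4.56% ± 0.39 to 3.57% ± 0.21. MAP1A therefore held a smaller share of the family in resistant cells in spite of its higher level.

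MAP2 (ENSG00000078018; chromosome 2, 209424058 to 209734118, forward strand) had 56.9, 55.6 and 56.2 CPM in parental libraries and 67.4, 67.5 and 63.3 CPM in resistant libraries. The groups were apart by 6.44 CPM, and the log2 fold change was 0.23 (SE 0.051), a difference of 17.5%. MAPT (ENSG00000186868; chromosome 17, 45894382 to 46028334, forward strand) had 48.8, 48.9 and 53.4 CPM in parental libraries and 47.1, 44.9 and 41.2 CPM in resistant libraries. The tau groups did not overlap either, but the gap was 1.67 CPM and the log2 fold change −0.18 (SE 0.061). Of these dendritic and axonal MAPs, 1 was thus slightly higher and the other slightly lower in resistant cells.

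MAP4 (ENSG00000047849; chromosome 3, 47850690 to 48089272, reverse strand), the ubiquitous relative of MAP2 and tau, had 434, 453 and 443 CPM in parental libraries and 434, 431 and 430 CPM in resistant libraries. The closest libraries of the groups were 0.425 CPM apart, and the log2 fold change was −0.04 (SE 0.027), which did not reach an FDR of 0.05. Among MAP2, MAP4 and MAPT, MAP4 held 78.3% ± 0.57 of the summed FPKM in parental and 76.9% ± 0.76 in resistant cells (SD, n = 3). MAP6 (ENSG00000171533; chromosome 11, 75586918 to 75669120, reverse strand), which makes neuronal microtubules stable in the cold, had 14, 15 and 2 counts in parental libraries and 4, 6 and 8 in resistant libraries. These groups overlapped, the gene had too few counts for the test, and no difference was detectable at this depth.

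Summed over the 7 structural MAP genes, the level was 69.2 ± 0.94 FPKM in parental and 110 ± 1.30 FPKM in resistant cells (SD, n = 3). Without MAP1B, the sums were 50.4 ± 0.80 and 50.0 ± 0.18 FPKM. The other 6 genes together thus had no net gain, with higher means of MAP1A and MAP2 beside lower means of MAP1S, MAP4 and MAPT. Among these 7 genes the larger sum therefore matched the rise of MAP1B, which was chosen for that rise. The share of MAP1B in the sum of all 7 went from 27.2% ± 0.23 to 54.7% ± 0.56. MAP4, which held the largest share in parental cells, went from 42.9% ± 0.43 to 26.2% ± 0.42.

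**Figure D2:**
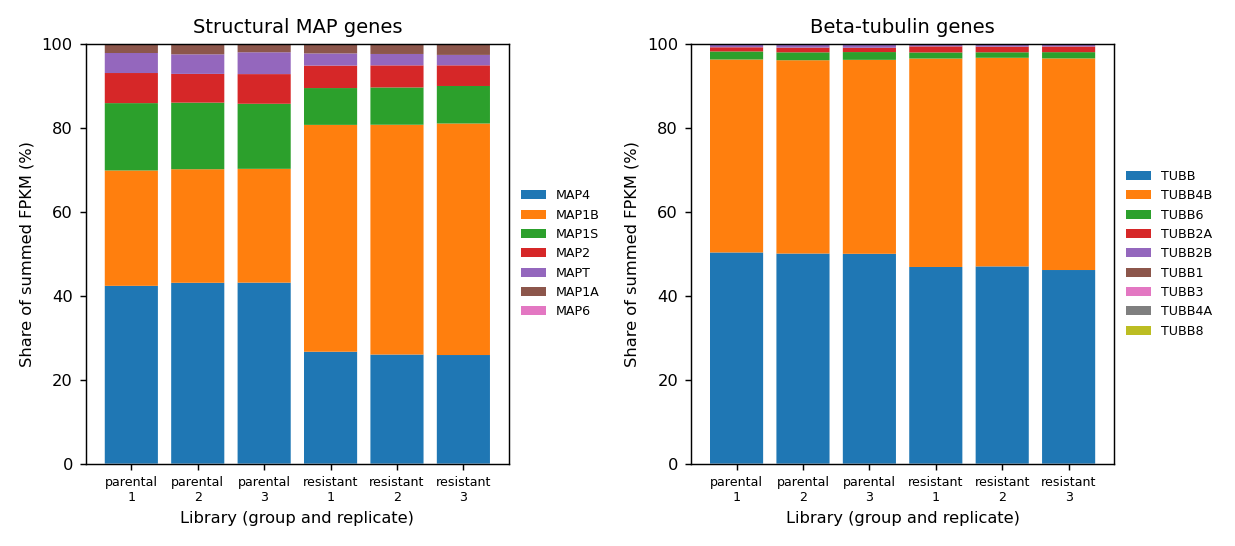
Share of summed FPKM (in percent) in each of the 6 libraries, for 7 structural MAP genes (left) and 9 beta-tubulin genes (right); each bar is 1 library and each color a gene. MAP1B held 27.2% of the left sum in parental and 54.7% in resistant cells, while TUBB and TUBB4B together made up 96.1% to 96.7% of the right sum in every library.

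STMN1 (ENSG00000117632; chromosome 1, 25884181 to 25906991, reverse strand), the tubulin-sequestering stathmin of dividing cells, had 618, 590 and 613 CPM in parental libraries and 573, 570 and 575 CPM in resistant libraries. The resistant libraries were all lower, by at least 15.6 CPM, and the log2 fold change was −0.08 (SE 0.026), the smallest difference among the 6 genes with an FDR under 0.05. TUBB3 (ENSG00000258947; chromosome 16, 89921392 to 89938761, forward strand) encodes class III beta-tubulin, the isotype used as a neuronal marker. Its counts were 35, 39 and 22 in parental libraries and 29, 22 and 29 in resistant libraries. The groups overlapped, with 1.98 ± 0.37 and 1.68 ± 0.16 CPM (SD, n = 3) and a log2 fold change of −0.24 (SE 0.28). DCLK1 (ENSG00000133083; chromosome 13, 35768652 to 36131306, reverse strand), a kinase with doublecortin domains that bind microtubules, had 0, 4 and 0 counts in parental libraries and none in resistant libraries. A count of 0 allows a level of up to 0.181, 0.204 and 0.185 CPM in resistant libraries 1, 2 and 3, and such limits cover counting error only.

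At an FDR under 0.05 combined with a log2 fold change beyond ±1 (edgeR's quasi-likelihood test; the thresholds of the study), 1 of the 8 genes with enough counts lay past the upper threshold (MAP1B, which was chosen by this difference) and 0 lay past the lower one. Of all 17142 genes tested, 2.53% were called higher and 2.84% lower. By the FDR alone, 3 of the 8 were higher (MAP1A, MAP1B and MAP2) and 3 lower (MAP1S, MAPT and STMN1), beside 17.1% and 18.4% of all genes tested. In CPM, all resistant libraries lay above all parental ones for 3 of the 8 and below them for 4, which held for 22.1% and 22.8% of all genes tested. The median log2 fold change of the 8 genes was −0.06, and that of all genes tested was 0.0038. Since the genes were chosen with these values known, nothing is read from the counts. MAP1S missed an FDR of 0.05 without parental library 2 (log2 fold change −0.15) or resistant library 1 (−0.14), as did MAPT without parental library 3 (−0.14) or resistant library 3 (−0.13), and with DESeq2 both genes missed it. With limma on log2(FPKM + 1), MAPT (−0.14) missed it as well.

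**Figure D3:**
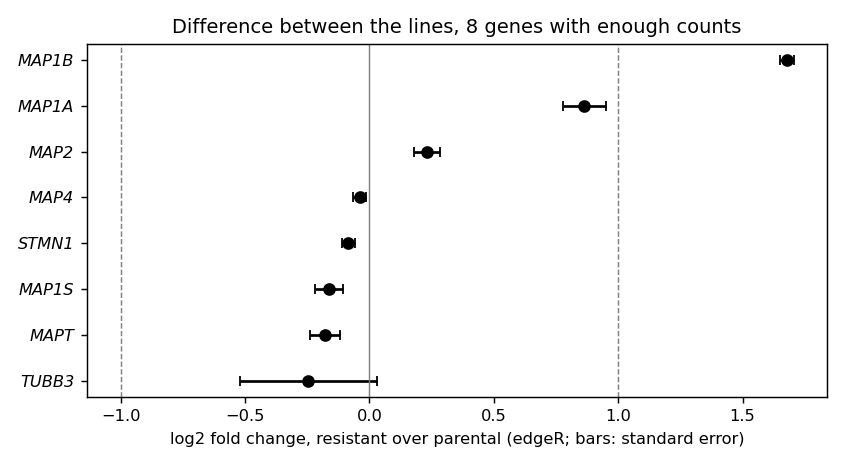
Log2 fold change of resistant over parental cells for the 8 genes with enough counts, from edgeR; points are estimates, bars are standard errors, and dashed lines mark −1 and 1. MAP1B, at 1.68, is the only gene beyond a dashed line, MAP1A follows at 0.86, and the other 6 lie between −0.24 and 0.23.

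No tested neighbor of MAP1B on chromosome 5 differed as much as MAP1B did. Within 1 Mb of the gene the table lists 10 other protein-coding genes, of which 7 were tested and 0 were called at both thresholds. An FDR under 0.05 was reached by all 7, with 3 higher and 4 lower (beside 17.1% and 18.4% of all genes tested) and log2 fold changes from −0.71 (TMEM171) to 0.19 (PTCD2). The nearest of them downstream, MRPS27, had a log2 fold change of 0.09 (SE 0.034). Overlap with other genes was slight. The table lists 21 genes whose coordinates overlap any of the 10 genes, and 2 of them had 10 or more counts in total. AC093218.1, on the strand opposite to MAP1B at its 5′ end, had 2, 1 and 3 counts in parental and 9, 12 and 6 in resistant libraries, together 0.069% of the MAP1B total. RNA5SP118 within MAP2 had 18 counts in total. It is not stated whether the counting used strand.

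The protein-coding genes with a pattern most like that of MAP1B, by Euclidean distance between log2 CPM values centered on each gene's mean over the 6 libraries, were EDIL3 (distance 0.085), GALNT10 (0.14), RHOU (0.16), VIM (0.16) and RBMS3 (0.19). Their log2 fold changes ran from 1.59 to 1.76. VIM, the intermediate filament vimentin, went from 17.8 ± 0.63 to 60.2 ± 1.94 CPM, and EDIL3, a secreted matrix protein, from 25.6 ± 0.32 to 79.3 ± 1.03 CPM (SD, n = 3). The 6 libraries form only 2 groups, so this likeness is given as a description.

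Other genes of the microtubule system were taken from 12 lists, which hold 234 genes of the table and none of the 10 above. Of the 207 tested, 44 were higher and 57 lower at an FDR under 0.05, that is 21.3% and 27.5%, beside 17.1% and 18.4% of all genes tested, and their median log2 fold change was −0.02. At both thresholds 5 were called higher (MAP7D2, MAPK10, KIF5C, NEFL and BASP1) and 5 lower (MID1, VASH1, VASH2, MARK1 and KIF21B), beside 2.53% and 2.84% of all genes tested. With limma on log2(FPKM + 1) only KIF5C and BASP1 of these 10 stayed beyond ±1, and with glmTreat, which tests for a difference beyond ±1, MID1, VASH1 and VASH2 were not called. MAP7D2, MAPK10 and NEFL had at most 10 counts in any parental library. They passed the filter on low counts through their resistant libraries alone, so nothing is read from their calls and their FDRs are not printed. Differences in both directions were thus present, with the median near 0.

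**Figure D4:**
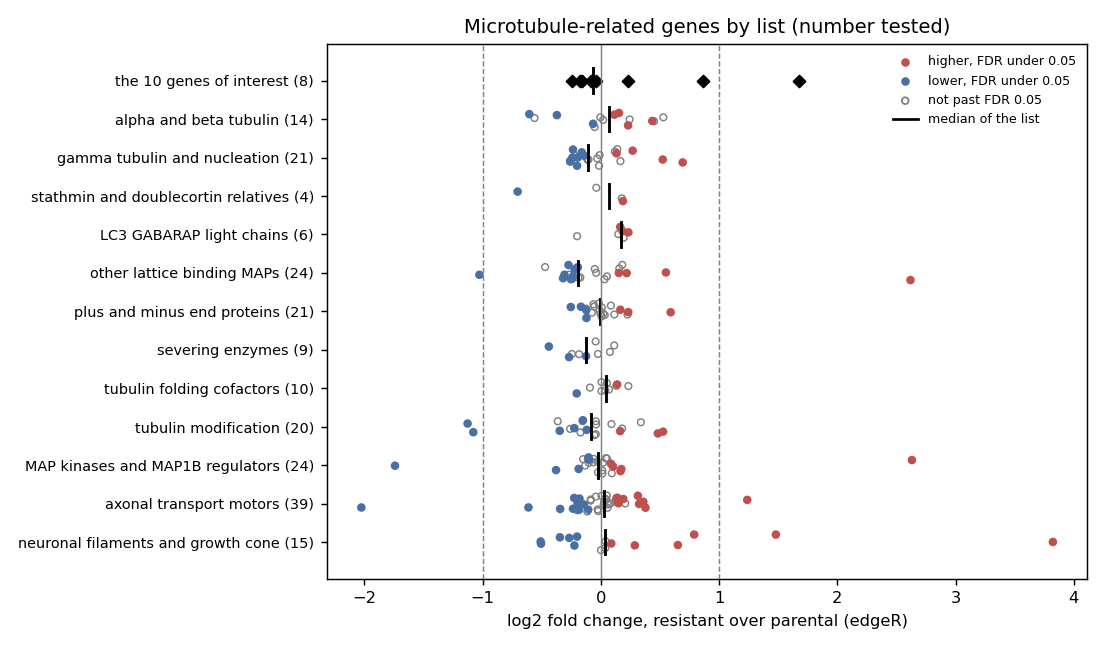
Log2 fold change of resistant over parental cells (edgeR) for the tested genes of 12 microtubule-related lists, with the 10 genes of interest (8 tested) as black diamonds on the top line; filled points passed an FDR of 0.05, open points did not, black bars are medians and dashed lines mark −1 and 1. The medians lie between −0.19 and 0.17, and few genes lie beyond a dashed line.

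Tubulin itself differed little between the lines. Of 14 alpha- and beta-tubulin genes tested, 4 were higher, 3 lower and 0 called at both thresholds, with a median log2 fold change of 0.07. The summed level of the 9 beta-tubulin genes, TUBB3 included, was 765 ± 6.94 FPKM in parental and 786 ± 8.60 FPKM in resistant cells (SD, n = 3). TUBB and TUBB4B, the widely expressed isotypes, dominated it. TUBB4B went from 745 ± 6.08 to 828 ± 16.1 CPM (log2 fold change 0.15, SE 0.025, FDR 2.22e-06), and TUBB from 1288 ± 15.6 to 1232 ± 1.23 CPM (log2 fold change −0.07, SE 0.023, FDR 0.0208). TUBB missed an FDR of 0.05 without parental library 1 (log2 fold change −0.06), resistant library 1 (−0.06) or resistant library 2 (−0.06). It also missed that FDR with limma on log2(FPKM + 1) (FDR 0.0664) and in edgeR with protein-coding genes only (FDR 0.0577). Class III tubulin was a trace component, with TUBB3 at 0.0584% ± 0.0112 of beta-tubulin FPKM in parental and 0.0482% ± 0.0042 in resistant cells. TUBB2A was higher (log2 fold change 0.44, FDR 2.18e-04) and TUBB2B lower (−0.60, FDR 2.11e-04), but these copies are nearly identical and the counting could have split their reads. Another 21 genes were those of gamma-, delta- and epsilon-tubulin, the gamma-tubulin ring complex and the augmin complex. Most of them serve to start new microtubules. Of these 21, 4 were higher and 8 lower, with MZT2A (0.69, FDR 9.35e-15) and TUBG2 (0.52, FDR 1.16e-04) as the largest differences. MZT2B, a near-identical copy of MZT2A, was also higher (0.27, FDR 7.56e-04). TUBG1, a close relative of TUBG2, was at 136 ± 12.6 and 134 ± 0.96 CPM (FDR 0.890). Both were named after their values were seen, and reads of these pairs could also have been split.

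Among stathmin and doublecortin relatives 4 of 9 had enough counts. STMN3 was higher, at 232 ± 14.2 in resistant against 204 ± 3.38 CPM in parental cells (SD, n = 3; log2 fold change 0.19, FDR 4.17e-05). DCDC2 was lower (−0.70, FDR 0.00152). The LC3 and GABARAP genes, some of which were first known as light chains of MAP1 proteins and which serve autophagy, had 3 of 6 tested genes higher and 0 lower, among them MAP1LC3B (0.18, FDR 7.89e-04) and MAP1LC3A (0.23, FDR 0.0160). MAP1LC3A missed an FDR of 0.05 without parental library 1 (log2 fold change 0.19) or resistant library 3 (0.22), and with DESeq2 (FDR 0.0534).

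Among 24 tested genes for other proteins that bind along the microtubule, 4 were higher and 10 lower, with a median log2 fold change of −0.19. MAP7D2, which recruits kinesin-1, had 10, 7 and 3 counts in parental and 37, 39 and 47 counts in resistant libraries (log2 fold change 2.62, SE 0.36). MID1, a ubiquitin ligase on microtubules, went from 19.9 ± 0.95 to 9.77 ± 0.47 CPM (−1.03, SE 0.099, FDR 2.22e-11). Its log2 fold change was −0.99 without parental library 3 or resistant library 1, and so under the fold threshold. Of 21 genes for plus- and minus-end proteins, 3 were higher and 4 lower, with CLIP3 (0.59, FDR 0.0165) and CAMSAP3 (−0.25, FDR 1.20e-04) showing the largest differences in each direction. CLIP3 missed an FDR of 0.05 without parental library 2 (0.53) or resistant library 1 (0.57), and with DESeq2 (FDR 0.0544). Of 9 severing enzyme genes 0 were higher and 3 lower, FIGN (−0.44, FDR 0.00540) among them. Of 10 entries for tubulin folding cofactors, in which TBCE stands under 2 identifiers, TBCB was higher (0.14, FDR 0.00661) and TBCCD1 lower (−0.20, FDR 0.0354). Neither kept an FDR under 0.05 in all fits with a library left out. TBCB missed it without parental library 1 (0.09). TBCCD1 missed it without each of parental libraries 2 and 3 and resistant libraries 2 and 3 (−0.21 to −0.16). TBCB also missed it with limma on log2(FPKM + 1) (FDR 0.0506). TBCCD1 also missed it with DESeq2 (FDR 0.101) and in edgeR without the filter on low counts (FDR 0.0713).

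Enzymes that modify tubulin included both vasohibins among the called genes. VASH1 and VASH2, which remove the terminal tyrosine of alpha-tubulin, went from 14.7 ± 2.00 to 6.73 ± 1.02 CPM and from 22.5 ± 0.50 to 10.6 ± 1.40 CPM (SD, n = 3). VASH1 had 225, 238 and 235 counts in parental and 93, 112 and 113 in resistant libraries, and VASH2 had 391, 385 and 305 against 179, 135 and 194, with no overlap in either gene. Their log2 fold changes were −1.13 (SE 0.13, FDR 1.31e-09) and −1.08 (SE 0.097, FDR 3.66e-12). Without resistant library 2, VASH2 was at −0.99 and so under the fold threshold, and with limma on log2(FPKM + 1) both genes were at −0.68. Neither was called with glmTreat. Their binding partner SVBP, named after its values were seen, had 5.62 ± 0.22 and 6.35 ± 1.23 CPM (log2 fold change 0.18, FDR 0.415). Of the 20 modification genes tested, 3 were higher and 6 lower. TTL, which puts the tyrosine back and was likewise named afterward, was higher (0.16, FDR 0.00614). On the same list, and also named afterward, KIAA0895L was at −0.05 (FDR 0.568) and KIAA0895 at −0.35 (FDR 1.02e-04). Tyrosination of tubulin was not measured.

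Kinases and other regulators that act on MAPs or on MAP1B had 5 of 24 tested genes higher and 5 lower. MARK1, a kinase that phosphorylates tau, MAP2 and MAP4 and releases them from microtubules, went from 8.16 ± 0.38 to 2.44 ± 0.64 CPM (SD, n = 3; log2 fold change −1.74, SE 0.18, FDR 1.62e-10). MAPK10, a JNK kinase, had 3, 4 and 1 counts in parental libraries and 23, 15 and 13 in resistant libraries (2.63, SE 0.54). GSK3B, which phosphorylates MAP1B in growing axons, was at 165 ± 4.44 and 163 ± 1.67 CPM (−0.02, FDR 0.642), and FMR1, whose protein represses MAP1B translation, was at 60.0 ± 3.05 and 54.8 ± 0.99 CPM (−0.13, FDR 0.0529). Both were named after their values were seen.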

How the data were processed

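Messenger RNA of 6 libraries was analysed. Per the labels and the study's methods, the authors trimmed reads with fastp, mapped them to hg38 with HISAT2 (version 2.0.5) and counted them with featureCounts (version 1.5.0-p3). The deposited values are raw counts per gene, and each gene's length in bases is given beside them by the authors as another quantity. The annotation release, strand setting and any filter on low counts are not given in the sources used here. Columns of per-sample values left unused numbered 0.

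Genes were filtered with filterByExpr, scaled with TMM and compared by the quasi-likelihood test of edgeR (4.0.16, under R 4.3.3), with Benjamini-Hochberg adjustment over all genes tested. The standard error is the log2 fold change divided by the square root of F. FPKM used the TMM-adjusted sizes. The study's methods name limma (limma 3.58.1 here), which was an alternative, as were DESeq2 (1.42.0) and 10 further settings. The scripts were tested on simulated data. Replicate pairs differed beyond sampling noise (chi-square per degree of freedom 1.79 to 2.48).

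The genes and lists were chosen with earlier results of these data known. Named are all 10 genes, list genes called at both thresholds or otherwise up to 2 with the largest differences at an FDR under 0.05, the 2 most abundant tubulins, 5 genes nearest in pattern, and overlapping or adjacent genes; some items are not reported here. P-values measure the spread between these libraries, which may be technical. No sequences are shown, since no human reference was used.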

Additional observations from a re-analysis of the deposited data

How the results depend on the processing

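The 12 alternatives and the 6 fits that each left out 1 library kept the direction of all 8 genes tested. MAP1B had a log2 fold change of 1.63 to 1.69 under the alternatives and of 1.67 to 1.70 with 1 library left out, and was the only one of the 10 genes called in every fit. Of 144 values for the 8 genes, 132 kept their side of an FDR of 0.05, and the other 12 lost it. Of those, 5 came from edgeR's glmTreat, which tests for a log2 fold change beyond ±1 and which MAP1A, MAP1S, MAP2, MAPT and STMN1 did not pass, and the rest concerned MAP1S and MAPT. Of 465 values for the named list genes, 426 kept their side and 39 lost it, 19 of them with glmTreat. MAPK10, at 2.63 in the reported test, was at 0.03 with limma on log2(FPKM + 1), a scale that compresses genes of low FPKM. Its means were 0.0038 FPKM in parental and 0.025 FPKM in resistant cells.

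Over the 12 lists, 44 genes were higher and 57 lower at an FDR under 0.05. Limma on log2(FPKM + 1) gave 29 higher, and called 2 higher and 0 lower at both thresholds against 5 and 5. Requiring at least 10 counts in every library removed MAP7D2, MAPK10 and NEFL and left 2 called higher. With glmTreat 5 were higher and 2 lower, and the calls lower numbered 2. With 1 library left out, 33 to 41 were higher and 49 to 52 lower. Without division by gene length, MAP1B held 77.2% of the MAP1 family in parental and 90.8% in resistant cells.

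With the replicate block, MAP1B had a log2 fold change of 1.68, and 39 list genes were higher and 56 lower. Deviations of same-numbered libraries were uncorrelated (Pearson's r across genes −0.0081, −0.020 and −0.016), so no effect shared by same-numbered libraries was detected. None of these libraries correlated best with its own number. Such values cannot show whether same-numbered libraries were handled together. At most 15 counts per library limited what could be seen of MAP6 and DCLK1.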

Other observations

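Genes for the motors that travel on microtubules differed in both directions. Of 39 tested motor, dynactin and adaptor genes, 10 were higher and 10 lower at an FDR under 0.05, with a median log2 fold change of 0.03. KIF5C, a kinesin-1 heavy chain, had 465, 497 and 348 counts in parental libraries and 1026, 1009 and 1020 in resistant libraries. Its mean was 27.2 ± 2.27 against 64.4 ± 3.62 CPM (SD, n = 3; log2 fold change 1.24, SE 0.064, edgeR FDR 1.22e-19). KIF5B, its ubiquitous relative, named after its values were seen, was at 435 ± 13.2 and 437 ± 4.80 CPM (0.006, FDR 0.896). KIF21B, a kinesin that limits microtubule growth, went from 72, 73 and 57 counts to 17, 11 and 21 (log2 fold change −2.02, SE 0.25, FDR 1.59e-08).

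Of 15 tested genes for neuronal filaments and growth cones, 6 were higher and 6 lower, with a median log2 fold change of 0.04. BASP1, a membrane protein of growth cones, went from 6.65 ± 0.67 to 18.4 ± 1.18 CPM (SD, n = 3; log2 fold change 1.48, SE 0.11, edgeR FDR 2.33e-14). NEFL, the light neurofilament subunit, had 3, 5 and 0 counts in parental libraries and 46, 31 and 40 in resistant libraries (3.82, SE 0.46). It passed the filter on low counts through its resistant libraries alone. GAP43, a growth cone protein often seen beside MAP1B in growing axons and named after its values were seen, stayed at 0.301 ± 0.129 and 0.218 ± 0.176 CPM and was not tested.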
